A study of Homo sapiens with 9 samples.

Results

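The E2F and RB family described here comprises 10 genes, taken by name from the 58735 genes of the deposited count table: the activator factors E2F1, E2F2 and E2F3, the factors E2F4 and E2F5, the atypical repressors E2F7 and E2F8, and the pocket proteins RB1, RBL1 and RBL2. Each name matched 1 row. They were measured by RNA-Seq in MIA PaCa-2 cells, an established human pancreatic cancer cell line, labelled with the genotype WT. The conditions were a 24-h exposure to SCH772984, an inhibitor of ERK1/2, at 1 μM, to compound 1, a dual inhibitor of TBK1 and IKKε, at 1 μM, or to 0.1% dimethyl sulfoxide (DMSO) as the vehicle, with 3 libraries per condition. All libraries come from 1 cell line, and the labels do not say whether replicates were separate cultures, so the p-values cover the spread between these libraries, which may be technical.

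E2F1 to E2F5 bind DNA with a dimerization partner, and E2F factors control genes needed to enter S phase. Pocket proteins bind E2F factors and hold their target genes off, and phosphorylation by cyclin D and cyclin E kinases releases them. RB1 mainly restrains the activators, whereas RBL1 (p107) and RBL2 (p130) mainly pair with E2F4 and E2F5, RBL2 most of all in resting cells. E2F7 and E2F8 bind DNA without a dimerization partner or a pocket protein and repress. Mitogen signaling through ERK feeds into this switch through cyclin D, and several family genes are themselves E2F targets.

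The family's own promoters were searched for the core E2F site and are shown because several of these genes are known E2F targets. The letters TTTCCCGC, TTTCGCGC, TTTGCCGC and TTTGGCGC were searched on both strands in the 250 bases before each RefSeq start site. RefSeq windows (GRCh38.p14) were at hand for 8 of the 10 members, all except E2F5 and E2F8. These genes have 10 windows, and 4 of the 10 held a match, 1 window each of E2F1, E2F2, E2F3 and RBL1, against 2.79% of all 35116 windows and 3.42% of those of protein-coding genes. The last 90 bases before the start of these genes are shown 5′ to 3′ on the strand of the gene, with the matches in capitals.
E2F1, chr20:33686386-33686475, minus strand: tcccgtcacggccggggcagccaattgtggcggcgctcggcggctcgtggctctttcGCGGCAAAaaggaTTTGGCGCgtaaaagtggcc
E2F2, chr1:23531234-23531323, minus strand: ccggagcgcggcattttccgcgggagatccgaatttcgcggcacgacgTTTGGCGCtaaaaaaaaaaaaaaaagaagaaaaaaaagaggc
E2F3, chr6:20401789-20401878, plus strand: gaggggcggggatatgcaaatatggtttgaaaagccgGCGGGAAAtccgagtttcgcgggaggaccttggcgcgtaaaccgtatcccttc
RBL1, chr20:37095998-37096087, minus strand: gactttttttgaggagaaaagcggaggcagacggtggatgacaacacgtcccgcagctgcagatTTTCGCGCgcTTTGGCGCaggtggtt

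E2F1 and RBL1 each held 2 matches that did not overlap, starting 33 and 20 bases before the start in E2F1 and 26 and 16 bases before it in RBL1. E2F2 held 1 match at 42 bases and E2F3 held 1 at 53 bases, the latter at the first of its 2 windows. The windows of E2F4, E2F7, RBL2 and RB1 held none of these letters, but some of these windows do not lie at the annotated gene start. The RB1 start site is 172724 bases inside the gene as GENCODE annotates it, and those of the 2 RBL2 windows are 494 and 1642 bases inside. The last bases shown for E2F1 lie inside the gene as GENCODE annotates it. A match is a stretch of letters and was not tested for binding.

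Library totals ranged from 9464432 to 10286223 counts with DMSO, from 9652741 to 9840769 with compound 1 and from 11056977 to 13887859 with SCH772984. Levels are counts relative to library size (CPM) after TMM scaling, which sets libraries to the same bulk of genes. Mitochondrially encoded genes took 3.33% to 3.98% of the counts with DMSO, 3.41% to 3.92% with compound 1 and 6.23% to 7.52% with SCH772984. The epithelial keratin genes KRT8, KRT18 and KRT19 were detected in every library, EPCAM had 0 counts throughout, the leukocyte gene PTPRC had 0 counts and the endothelial gene PECAM1 at most 1. Some markers moved with ERK inhibition. KRT8 stood at 2415 to 2554 CPM with DMSO, 2033 to 2525 with compound 1 and 724 to 819 with SCH772984. KRT18 followed the same course (828 to 913, 718 to 908 and 155 to 175 CPM), whereas KRT19 overlapped in all conditions. The fibroblast collagen gene COL1A2 went the other way, at 458 to 507, 468 to 532 and 984 to 1114 CPM, and COL1A1 likewise, at 0.110 to 0.410, 0.104 to 0.418 and 2.36 to 3.22 CPM. Their part in the results for the family was not tested. Replicates were compared by a chi-square statistic divided by its degrees of freedom, which ranged from 2.35 to 3.18 in DMSO pairs and from 4.33 to 7.12 in SCH772984 pairs. Replicate 1 of compound 1 stood apart from replicates 2 and 3 (10.4 and 7.79), which differed less from each other (2.69).

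In DMSO the family spanned a wide range of levels per length of gene (CPM per kb, mean ± SD, n = 3). E2F4 was highest at 42.8 ± 0.713 CPM per kb, followed by E2F1 at 38.0 ± 2.65, and their libraries did not overlap. E2F3 (13.0 ± 0.701) and RB1 (12.8 ± 0.533) overlapped, as did RBL1 (8.003 ± 0.556) and RBL2 (7.38 ± 0.111), and E2F8 (3.91 ± 0.401) and E2F2 (3.41 ± 0.242). E2F7 followed at 2.38 ± 0.542 and E2F5 was lowest at 1.17 ± 0.222 CPM per kb. E2F4 and E2F1 thus held 40.9% ± 1.60 and 36.3% ± 1.02 of the RNA of the 7 E2F genes per length. Gene lengths are the deposited ones and equal the union of all annotated exons, so a gene with unused exons reads low on this scale, and isoforms such as those of E2F3 are not told apart.

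**Figure D1:**
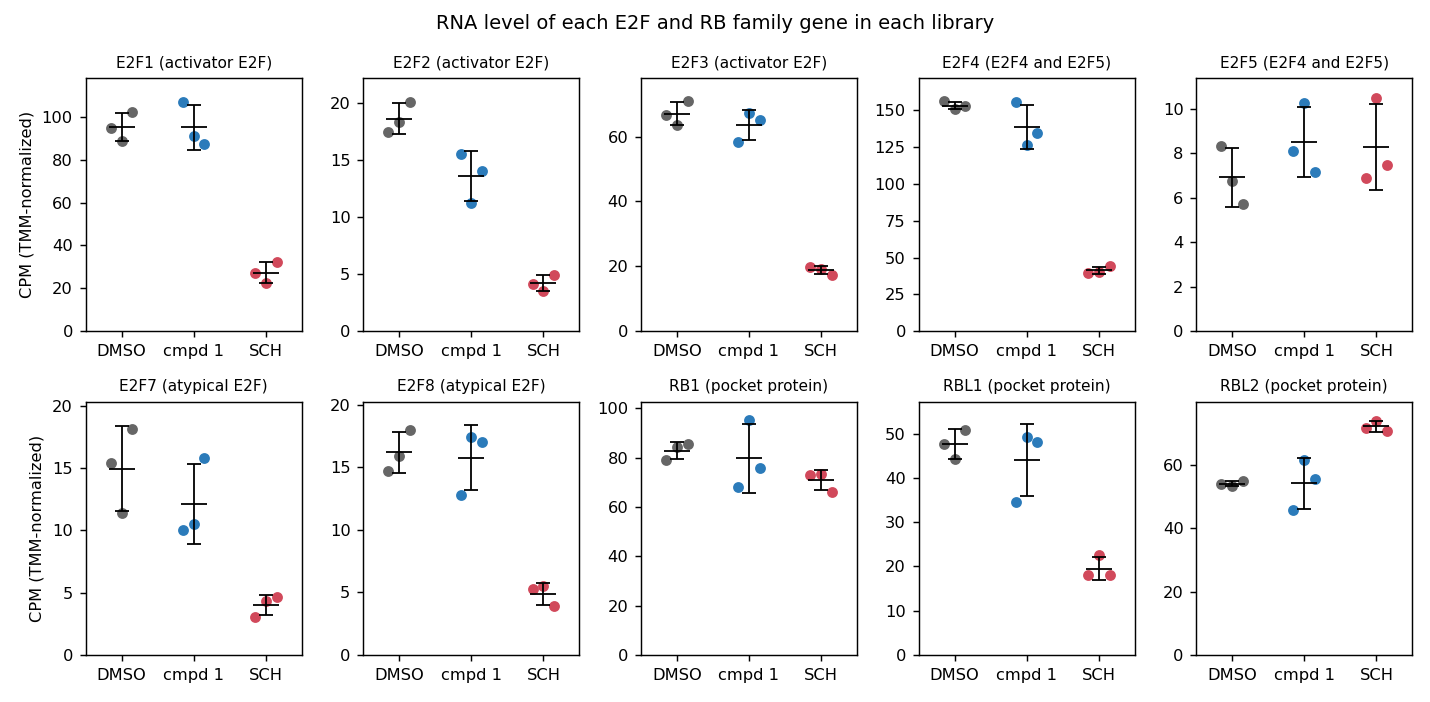
TMM-normalized CPM (y axis, from 0) of each of the 10 members in each library of DMSO, compound 1 (cmpd 1) and SCH772984 (SCH). Points are libraries, drawn from replicate 1 at the left to 3 at the right, and bars are the mean ± SD of 3 libraries. E2F1, E2F2, E2F3, E2F4, E2F7, E2F8 and RBL1 lie lower with SCH772984, RBL2 lies higher, and compound 1 libraries lie near DMSO.

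The first comparison asked what ERK inhibition did to the family. With SCH772984, 8 of the 10 members fell and RBL2 rose, while E2F5 did not pass the test (edgeR's quasi-likelihood test, Benjamini-Hochberg adjusted p under 0.05, n = 3 libraries each). Of all 13834 genes tested, 35.5% were lower and 37.2% higher by the same rule. The 6 E2F factors that fell lost about as much as each other, to between 22.7% and 29.8% of their DMSO level, and lay within the lowest 2.73% of all genes by log2 fold change. The median log2 fold change of the members was -1.77, against 0.03 over all genes tested. The libraries of both groups did not overlap for 9 members, which was so for 74.3% of all genes tested. In bulk RNA from cultures, fewer cells in a given cell cycle phase and less RNA per cell cannot be told apart.

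All 3 activators, the factors that switch on S phase genes, fell. E2F1 stood at 94.6, 88.8 and 102 CPM with DMSO and at 27.4, 22.5 and 32.1 CPM with SCH772984. Its log2 fold change was -1.80 (SE 0.09, adjusted p = 4.08e-19 in edgeR), and the highest treated library was far below the lowest control. E2F3, the second most abundant activator, went from 66.7, 63.6 and 70.8 CPM to 19.9, 19.2 and 17.5 CPM, a log2 fold change of -1.84 (SE 0.09, adjusted p = 1.99e-22 in edgeR). E2F2 was the rarest of the 3 and had the largest fitted fall of the family, from 17.4, 18.3 and 20.03 CPM to 4.16, 3.54 and 4.90 CPM. Its log2 fold change was -2.14 (SE 0.16, adjusted p = 9.12e-16 in edgeR), with 42 to 73 counts per treated library. The 95% intervals of the 3 activators overlapped one another.

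E2F4 and E2F5, the usual partners of RBL1 and RBL2, did not move together. E2F4, the most abundant member, went from 156, 151 and 153 CPM with DMSO to 39.5, 40.5 and 44.2 CPM with SCH772984. This was a log2 fold change of -1.89 (SE 0.07, adjusted p = 2.25e-26 in edgeR), as large as that of the activators and with the smallest error in the family. E2F5 stood at 8.30, 6.74 and 5.69 CPM with DMSO and at 6.90, 10.5 and 7.45 CPM with SCH772984, and the groups overlapped. Its log2 fold change was 0.24 with a 95% interval of -0.14 to 0.63 (adjusted p = 0.244 in edgeR), from 52 to 124 counts in these libraries. The interval of E2F5 lay wholly above that of each of the 6 other E2F genes. When libraries were scaled by size alone, E2F5 passed as higher by 0.42 on the log2 scale (adjusted p = 0.0450 in edgeR), a scaling that raised the median of all genes by 0.17. With TMM scaling the E2F5 value was 0.043 without SCH772984 replicate 2 (adjusted p = 0.866 in edgeR), 0.10 when DMSO replicate 3 was left out and 0.38 when replicate 1 was, and passed in none of these. Exons of E2F5 share 969 bases, 16.3% of its exon length, with C8orf59 on the opposite strand, which had 26 to 45 counts per library, and 133 bases with an antisense gene that had at most 3. The strand setting of the counting is not given in the sources used here.

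The atypical repressors fell as the activators did. E2F7 went from 15.4, 11.4 and 18.2 CPM to 3.08, 4.30 and 4.63 CPM (log2 fold change -1.90, SE 0.19, adjusted p = 3.63e-12 in edgeR). E2F8 went from 14.7, 15.9 and 18.0 CPM to 5.24, 5.49 and 3.89 CPM (log2 fold change -1.75, SE 0.17, adjusted p = 1.14e-12 in edgeR). Neither gene's treated libraries reached its controls. E2F7 was the most variable member within DMSO, with a coefficient of variation of 22.8%.

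The pocket proteins split in 3 ways. RBL1 fell, from 47.8, 44.3 and 50.9 CPM with DMSO to 18.0, 22.5 and 18.0 CPM with SCH772984 (log2 fold change -1.30, SE 0.10, adjusted p = 1.59e-15 in edgeR). RBL2 rose, from 53.9, 53.2 and 54.8 CPM to 71.8, 73.9 and 70.7 CPM (log2 fold change 0.41, SE 0.08, adjusted p = 6.35e-06 in edgeR), and every treated library exceeded every control. RBL2 rose as well, by 0.59 on the log2 scale, when libraries were scaled by size alone. RB1, the retinoblastoma tumor suppressor, was the least changed gene that passed, at 78.9, 84.3 and 85.4 CPM with DMSO and 72.9, 73.3 and 66.1 CPM with SCH772984. Its log2 fold change was -0.23 (SE 0.07, adjusted p = 0.00457 in edgeR), but with scaling by library size alone it was -0.06 and no longer passed (adjusted p = 0.462). RB1 also no longer passed when 10 counts were required in every library (log2 fold change -0.16, adjusted p = 0.0576 in edgeR).

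Exons of RBL2 share 610 bases, 8.33% of its exon length, with AKTIP on the opposite strand, and 721 bases (9.85%) with AC007342.6, also opposite, which had at most 3 counts. AKTIP had a median of 209 counts with DMSO and 368 with SCH772984, and its part in the RBL2 count was not tested. Exons of RBL1 share 211 bases with an antisense gene that had at most 4 counts, and those of E2F8 share 7 bases with another that had at most 3. No exon of E2F1, E2F2, E2F3, E2F4, E2F7 or RB1 overlaps an exon of another annotated gene. Processed pseudogenes of E2F3 and E2F4 had at most 5 counts in any library.

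**Figure D2:**
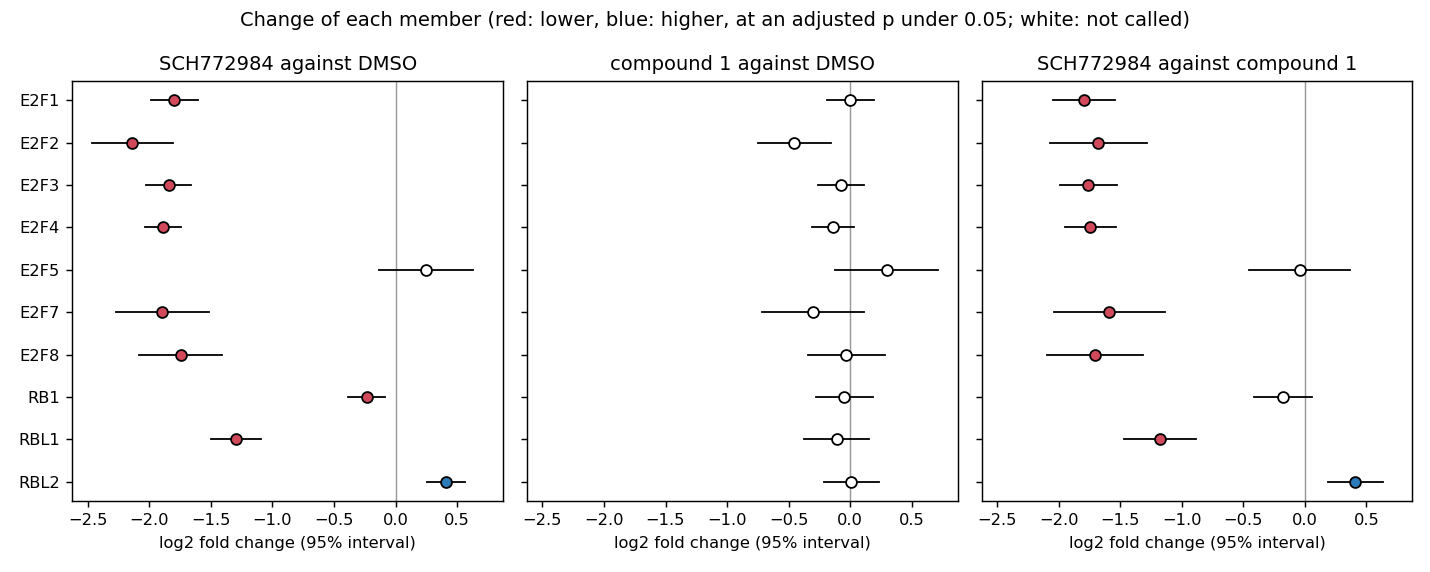
Log2 fold change of each member (x axis) in the 3 comparisons, with 95% intervals from edgeR and n = 3 libraries per group. Red points are lower and blue points higher at an adjusted p under 0.05, and white points did not pass. Against DMSO, SCH772984 puts 6 E2F genes between -2.14 and -1.75 and RBL1 at -1.30, with RB1, E2F5 and RBL2 near or above 0.

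Ratios between members within a library do not depend on the scaling between libraries. They are descriptions without a test. Per length, RBL2 stood at 0.924 ± 0.0509 times RBL1 in DMSO libraries (SD, n = 3), at 1.01 ± 0.0689 times in those of compound 1 and at 3.03 ± 0.318 times under SCH772984. The lowest SCH772984 library, at 2.67, lay above the highest of the other 6 libraries, at 1.07. RBL2 made up 26.1% ± 0.538 of pocket protein RNA with DMSO and 40.9% ± 1.11 with SCH772984, and RBL1 28.3% ± 1.35 and 13.6% ± 1.27. The share of RB1 was 45.5% ± 1.40 and 45.5% ± 1.16.

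Pocket protein RNA summed over the 3 genes was 0.287 ± 0.00733 of the summed RNA of E2F1 to E2F5 with DMSO and 0.858 ± 0.105 with SCH772984, again without overlap. Among the E2F genes, the group sums overlapped between conditions, while E2F5 against E2F4 did not. The activators summed to 1.24 ± 0.0840 times E2F4 and E2F5 with DMSO and 1.18 ± 0.143 times with SCH772984, and the libraries overlapped. E2F7 and E2F8 summed to 0.115 ± 0.00781 of the activators with DMSO and 0.120 ± 0.0272 with SCH772984, with overlap. The ratio of E2F5 to E2F4 was 0.0272 ± 0.00481 with DMSO and 0.121 ± 0.0303 with SCH772984, without overlap. E2F5 made up 1.12% ± 0.228 of the E2F RNA with DMSO and 4.68% ± 1.33 with SCH772984. In the order of levels with SCH772984, E2F4 (11.6 ± 0.687 CPM per kb), RB1 (10.96 ± 0.630), E2F1 (10.9 ± 1.93) and RBL2 (9.85 ± 0.220) formed a run of overlapping neighbours at the top.

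**Figure D3:**
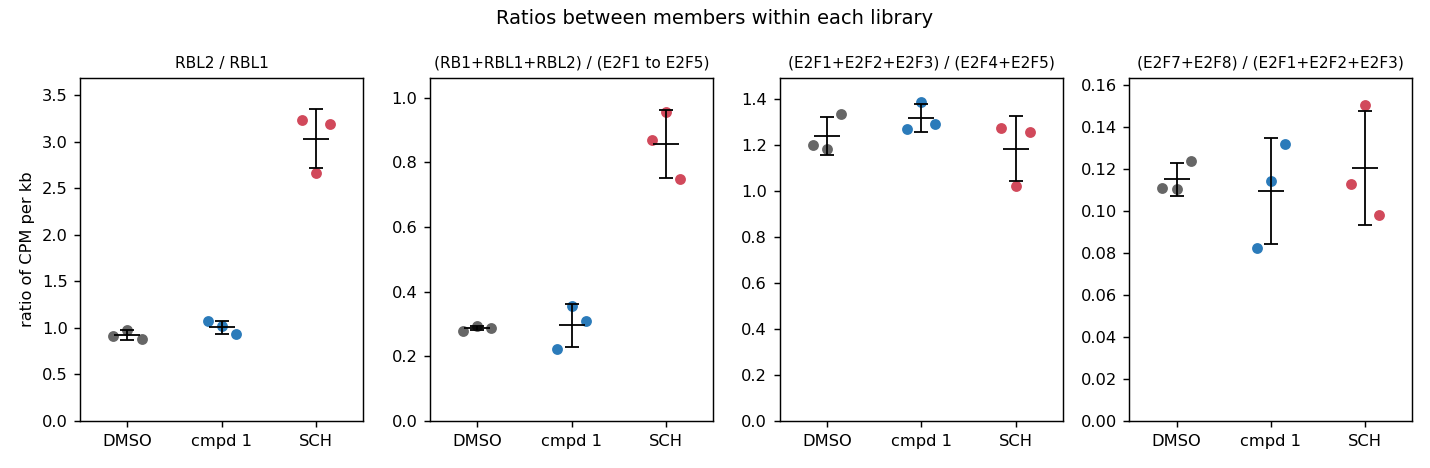
Ratios of CPM per kb (y axis, from 0) between members within each library of DMSO, compound 1 (cmpd 1) and SCH772984 (SCH). Points are libraries and bars are the mean ± SD of 3 libraries. The ratios of RBL2 to RBL1 and of pocket proteins to E2F1 to E2F5 are higher in all SCH772984 libraries, and the ratios among E2F groups overlap.

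With compound 1, 0 of the 10 members passed the adjusted threshold against DMSO in either direction, where 0.374% of the 12849 genes tested were lower and 0.49% higher (edgeR). At an unadjusted p under 0.05, 1 member was lower and 0 higher in edgeR, where 7.69% and 7.35% of all genes were, and DESeq2 called 0 members after adjustment. The median log2 fold change of the members was -0.06, against 0.00 for all genes. That member was E2F2, at 15.5, 11.2 and 14.03 CPM with compound 1 and 17.4, 18.3 and 20.03 CPM with DMSO, so that the groups did not overlap (for 20.9% of all genes they did not). Its log2 fold change was -0.45, with a 95% interval of -0.75 to -0.16 (unadjusted p = 0.00535, adjusted p = 0.137 in edgeR).

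Replicate 1 of compound 1 moved several members. E2F4 stood at 156 CPM in replicate 1 and at 126 and 135 CPM in replicates 2 and 3, against 151 to 156 CPM with DMSO. Without replicate 1, 2 members passed as lower in edgeR: E2F2 by -0.55 on the log2 scale (adjusted p = 0.00974) and E2F4 by -0.23 (adjusted p = 0.0123). In that setting calls over all 13084 genes tested also went up, from 48 lower and 63 higher to 798 and 453. With any other library left out, 0 members passed, and calls over all genes went down to 3 to 24 lower and 5 to 27 higher, so that few calls were made on any genes. The pocket proteins were lowest in the same replicate, RB1 at 68.1 CPM against 95.2 and 76.0, RBL1 at 34.7 against 49.2 and 48.2, and RBL2 at 45.6 against 61.5 and 55.4. E2F1 was highest there, at 107 CPM against 90.8 and 87.5, and so was E2F2, at 15.5 against 11.2 and 14.03. Lowest there were E2F3 (58.5 against 67.1 and 65.2), E2F7 (10.01 against 10.5 and 15.8) and E2F8 (12.8 against 17.4 and 17.04). E2F5, at 8.07 CPM, lay between its other libraries, at 10.2 and 7.17. The ratio of pocket proteins to E2F1 to E2F5 spanned 0.222 to 0.356 with compound 1, against 0.279 to 0.294 with DMSO. The deposited gene lengths are 6452, 5954 and 7320 bases for RB1, RBL1 and RBL2 and 2503 and 3582 bases for E2F1 and E2F4. They are 5457 bases for E2F2, 5164 for E2F3, 5928 for E2F5, 6303 for E2F7 and 4140 for E2F8. The part of length in these differences was not tested.

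For the 9 members other than E2F2, the 95% interval of the log2 fold change with compound 1 included 0. It was -0.19 to 0.19 for E2F1, -0.26 to 0.12 for E2F3 and -0.31 to 0.03 for E2F4. For the pocket proteins it was -0.28 to 0.18 for RB1, -0.37 to 0.15 for RBL1 and -0.22 to 0.23 for RBL2. For the low-count genes it was wider, -0.72 to 0.12 for E2F7, -0.35 to 0.28 for E2F8 and -0.12 to 0.71 for E2F5.

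In the direct comparison, 7 members were lower and 1 was higher with SCH772984 than with compound 1 in edgeR after adjustment, where 32.6% and 33.7% of 13863 genes were. The lower genes were E2F1, E2F2, E2F3, E2F4, E2F7, E2F8 and RBL1, at log2 differences of -1.79 for E2F1 (SE 0.12, adjusted p = 5.17e-11) to -1.18 for RBL1 (SE 0.14, adjusted p = 2.50e-07). RBL2 was higher by 0.41 (SE 0.11, adjusted p = 0.00217 in edgeR). RB1 differed by -0.18 with a 95% interval of -0.41 to 0.06 (adjusted p = 0.177), and passed as lower without compound 1 replicate 1 (-0.28, adjusted p = 0.00660 in edgeR). The difference was -0.035 without compound 1 replicate 2 (adjusted p = 0.802) and -0.041 with library size alone (adjusted p = 0.771). E2F5 differed by -0.04 (95% interval -0.46 to 0.37). This comparison and the one with DMSO use the same SCH772984 libraries.

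The genes that work with the family were followed with lists written from textbook knowledge, with earlier results of these data known. Their counts stand against 35.5% of all genes lower and 37.2% higher with SCH772984. With compound 1, 0.374% of all genes were lower and 0.49% higher after adjustment, and 7.69% and 7.35% at an unadjusted p under 0.05. Of the dimerization partners, TFDP1, which pairs with E2F1 to E2F5, fell with SCH772984 from 229 to 93.4 CPM (log2 fold change -1.30, adjusted p = 7.06e-22 in edgeR). TFDP2, its relative, had a log2 fold change of 0.16 that did not pass (adjusted p = 0.0551), and TFDP3 had 0 counts in every library. E2F6, a repressor without a pocket protein site, fell from 24.8 to 15.1 CPM (log2 fold change -0.72, adjusted p = 1.48e-06 in edgeR). With compound 1, 0 of these 3 tested genes passed, with 0 at an unadjusted p under 0.05.

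MuvB is the core complex that joins RBL1 or RBL2 and E2F4 to repress in resting cells, and MYBL2 and FOXM1 to activate later in the cycle. With SCH772984, 6 of the 7 genes of this list fell (35.5% of all genes did) and LIN37, with a log2 fold change of 0.57, did not pass (adjusted p = 0.143 in edgeR). MYBL2 fell from 429 to 126 CPM (log2 fold change -1.77, adjusted p = 1.36e-27) and FOXM1 from 229 to 70.4 CPM (-1.71, 4.09e-26). The core subunits fell less, LIN9 by 1.26, LIN52 by 0.78, LIN54 by 0.64 and the histone binding protein RBBP4 by 0.51 on the log2 scale. With compound 1, 0 passed after adjustment, and FOXM1 (-0.21, unadjusted p = 0.00461 in edgeR) and MYBL2 (-0.19, unadjusted p = 0.0122) were lower at the unadjusted threshold.

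All 4 genes of the list on E2F degradation fell with SCH772984, as did 35.5% of all genes. CCNF and SKP2 are substrate receptors of SCF ubiquitin ligases, FZR1 activates the anaphase-promoting complex and FBXO5 inhibits it. FBXO5 had a log2 fold change of -2.21, CCNF of -1.91, SKP2 of -0.67 and FZR1 of -0.24. With compound 1, 0 of the 4 passed, with 0 at an unadjusted p under 0.05.

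All 29 textbook E2F target genes that were tested fell with SCH772984, with a median log2 fold change of -1.82 and a range of -2.66 to -0.91, where 35.5% of all genes fell. The largest falls were those of RRM2, a ribonucleotide reductase subunit, from 347 to 55.1 CPM (log2 fold change -2.66, adjusted p = 1.31e-32 in edgeR), the phosphatase gene CDC25A (-2.63, 5.06e-25) and the methylation maintenance factor UHRF1 (-2.49, 5.49e-32). With compound 1, the median of the list was -0.14, 1 gene passed as lower and 0 as higher after adjustment, and 11 were lower and 1 higher at an unadjusted p under 0.05, where 7.69% and 7.35% of all genes were. The gene that passed was the replicative helicase subunit MCM2, from 270 to 211 CPM (log2 fold change -0.35, adjusted p = 0.0299 in edgeR). In the promoter search, 12 of the 38 windows at hand, from 24 of the target genes, held a match (31.6%, against 2.79% of all windows and 3.42% of those of protein-coding genes).

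Of 15 G1 cyclins, cyclin-dependent kinases and their inhibitors, 13 were tested with SCH772984, 7 fell and 5 rose. By the same rule 35.5% of all genes were lower and 37.2% higher. CCND2 and CDKN1C had the largest changes, followed by CDKN1A (higher) and CCNE2, a cyclin E gene (lower), whose changes were equally large within 1 SE. CCND2, a D-type cyclin, was not counted in DMSO (0 counts in each library) and had 11 to 17 counts under SCH772984. That is at least 3.52-fold higher against a floor of 3 counts per library. Of the other D-type cyclin genes, CCND1 fell from 194 to 120 CPM (log2 fold change -0.70, adjusted p = 7.1e-13 in edgeR). CCND3 fell from 70.5 to 31.3 CPM (-1.17, 1.59e-16). The kinase genes CDK4, CDK6 and CDK2 fell too (log2 fold changes -0.69, -1.11 and -1.50). The kinase inhibitors CDKN1C and CDKN1A rose by 2.29 (adjusted p = 1.99e-10 in edgeR) and 1.72 (SE 0.28, adjusted p = 4.66e-07) on the log2 scale. CCNE2, named after its value was seen, fell by 1.72 (SE 0.20, adjusted p = 1.86e-10 in edgeR). CDKN2A and CDKN2B, inhibitors of the cyclin D kinases, had 0 counts in all 9 libraries, which allows up to 3 counts in each. The median log2 fold change of the list was -0.69, with CCND2 at its fitted value or at its bound. With compound 1, 0 of 12 tested genes passed after adjustment, and 1 was lower and 1 higher at an unadjusted p under 0.05 in edgeR, near the 7.69% and 7.35% of all genes. CCND2, which had 3 to 7 counts in each compound 1 library, did not pass the filter on low counts there.

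**Figure D4:**
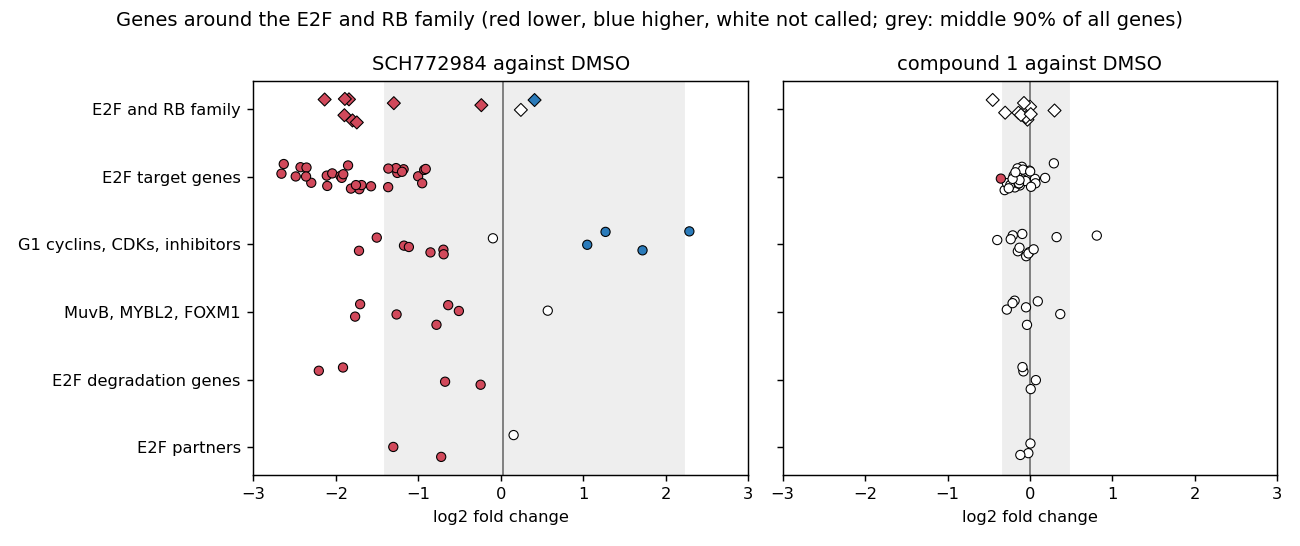
Log2 fold change (x axis) of the family (diamonds) and of the genes around it (circles) with each inhibitor against DMSO. Red is lower, blue higher and white not passed at an adjusted p under 0.05, the grey band holds the middle 90% of all genes tested, the vertical line is their median, CCND2 is left out, and vertical positions within a row carry no value. With SCH772984 all 29 target genes lie at -0.91 or below, and with compound 1 most points lie within the band.

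The genes whose pattern over the 9 libraries was closest to a member were taken among 9959 protein-coding genes, by the root mean square difference of log2 CPM relative to the DMSO mean. Nearest to E2F1 were AMPD3 (0.108), the chromosomal passenger complex gene CDCA8 (0.114) and RIN1 (0.126). Nearest to E2F8 were CENPF (0.0909) and KNL1 (0.0954), which encode kinetochore proteins, and the topoisomerase gene TOP2A (0.106). Nearest to RBL2 were ATP11B (0.0382), RAB3GAP2 (0.0414) and SPAG9 (0.0539).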

How the data were processed

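The authors deposited raw read counts per gene for 9 libraries, and their processing notes name HISAT2 2.0.5, featureCounts 1.5.0-p3 and hg38. Of 58735 gene positions, 58690 equalled GENCODE release 29 (GRCh38). Genes were tested with edgeR 4.0.16 (quasi-likelihood, robust) in R 4.3.3 after TMM scaling and filterByExpr (minimum count 10, minimum total count 15), with 1 fit per pair of conditions, adjusted over all genes tested and called at an adjusted p under 0.05. The method was tested on simulated data. Far fewer genes changed in those data than with SCH772984. Displayed CPM use TMM factors of all 9 libraries. The pattern search used log2(CPM + 0.5), genes with a mean of at least 5 CPM, and named the 3 nearest. Named genes were all members, all genes of lists with at most 7 genes, and the 3 largest changes among those passing in longer lists with SCH772984. The single genes named with compound 1, and CCND1, CCND3, CCNE2, CDK2, CDK4, CDK6, CDKN1B and CDKN2A to CDKN2D, were chosen after their values were seen. Members and lists were chosen with earlier results of these data known. Intervals cover the spread between libraries, and intervals and floors do not cover errors of alignment. Alternatives were library size or RLE scaling, other filters, all libraries in one fit, a replicate block, protein-coding genes only, other thresholds, DESeq2 1.42.0 and leaving out each library. One gene of the target list is not reported here.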

Additional observations from a re-analysis of the deposited data

How the results depend on the processing

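Counts of members that passed moved in few alternatives. With SCH772984 against DMSO, 2 members were higher with scaling by library size alone (RBL2 and E2F5), and 0 when a 2-fold change was required, as against compound 1. The 8 lower members became 7 with library size alone, with 10 counts in every library and with the 2-fold requirement, each time without RB1. The 7 lower members of the direct comparison became 8 without compound 1 replicate 1. With compound 1, 1 member was lower at the unadjusted p. Leaving out 1 library at a time gave 0 to 2 lower members. Correlations between the deviations of same-numbered libraries ranged from -0.089 to 0.13, which cannot settle whether replicates were paired. With the replicate block, SCH772984 against DMSO gave 8 lower members and 1 higher, compound 1 gave 0, and the direct comparison gave 7 and 1, as without it. Over all genes, the block moved the calls with compound 1 from 48 lower and 63 higher to 219 and 193. Signs turned only for values near 0 that had not passed. E2F1 with compound 1 was -0.0015 with RLE or DESeq2, -0.0084 without a filter, -0.00076 in one fit and -1.6e-05 with the replicate block. RBL2 with compound 1 was -0.00046 without a filter and -0.00018 with the replicate block. Leaving out a library gave ranges of -0.088 to 0.056 for E2F1, -0.12 to 0.10 for E2F8, -0.20 to 0.053 for RB1, -0.20 to 0.037 for RBL1 and -0.10 to 0.12 for RBL2. In the direct comparison E2F5 was 0.093 by library size, 0.032 with 10 counts in every library and -0.24 to 0.11 with a library left out. Depth limits E2F2, E2F5, E2F7 and E2F8 most, with 37 to 183 counts per library.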
